A study of Mus musculus with 8 samples.

Results

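The 4 receptors of the ErbB family (Egfr, Erbb2, Erbb3, Erbb4), the receptor Met, and 5 of their ligands (Egf, Hbegf, Nrg1, Nrg2, Hgf) were followed across brain tumor and naive brain of a mouse model of supratentorial ependymoma. These 10 genes were taken by symbol from a table of 55414 genes. The rule uses no measured value, but the genes were chosen with earlier results of these data known. All 10 were among the 24356 genes that passed the filter on low counts. A second identifier carrying the symbol Nrg1 had 0 counts in all 8 libraries and was not used.

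RNA was sequenced in 8 libraries, which form 4 groups of 2, naive brain and tumor under each of vehicle and MRX-2843. All 8 carry the genotype ZFTA-RELAfusion in the labels, the fusion that drives this ependymoma, and all 8, vehicle included, carry the drug's name in the cell line field. MRX-2843 is a small molecule that inhibits the kinases MERTK and FLT3. Mice whose tumor had been seen by MRI were randomised to vehicle or to 50 mg/kg MRX-2843, given by oral gavage once a day for 5 days, and tissue was taken 1 h after the last dose. The labels give neither age nor strain. They also leave unstated if the naive brain was that of tumor-bearing animals, and if the libraries of a group were taken from separate animals. The p-values therefore measure the spread between these libraries, which may be technical.

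ErbB receptors are transmembrane tyrosine kinases that work as dimers. Egfr binds Egf, Tgfa and Hbegf, Erbb3 and Erbb4 bind neuregulins (Nrg1 and Nrg2 among them), Erbb4 also binds Hbegf, and Erbb2 has no known ligand of its own and serves as the favoured partner of the others. Erbb3 has little kinase activity and signals through its partners. In brain, neuregulin signalling is known in the oligodendrocyte lineage, and Erbb4 is known in inhibitory interneurons. Met is the receptor of Hgf, which is secreted as an inactive precursor and cut into its active form by serine proteases.

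The receptors lie on different chromosomes, except that Egfr and Erbb2 share chromosome 11 (GRCm38, GENCODE M21). Egfr spans chr11:16752203-16918158 and Erbb2 chr11:98412470-98437716, both on the plus strand. Erbb3 spans chr10:128567523-128589652 and Erbb4 chr1:68032186-69108059, both on the minus strand. Met spans chr6:17463800-17573980 on the plus strand. Of the ligands, Egf lies at chr3:129677565-129755316 on the minus strand and Hgf at chr5:16553495-16620152 on the plus strand.

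RefSeq start windows (GRCm38.p6) were listed for 6 members: Egfr, Erbb2, Erbb4, Met, Egf and Hgf. The bases before the start are shown for Egfr and Erbb2, which rose in vehicle tumor, and for Erbb4, which fell. Erbb3 rose as well but had no listed window. They are read 5′ to 3′ on the gene's strand and stop where either RefSeq or GENCODE starts the gene. Capitals mark a GC box (GGGCGG on either strand), the motif of Sp-family factors. The windows are chr11:16751953-16752202 for Egfr, chr11:98412234-98412469 for Erbb2 and chr1:69108060-69108309 for Erbb4.
Egfr: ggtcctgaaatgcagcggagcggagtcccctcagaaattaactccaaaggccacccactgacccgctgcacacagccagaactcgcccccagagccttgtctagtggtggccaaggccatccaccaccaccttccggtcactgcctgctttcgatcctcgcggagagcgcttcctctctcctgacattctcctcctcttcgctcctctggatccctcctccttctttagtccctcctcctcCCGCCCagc
Erbb2: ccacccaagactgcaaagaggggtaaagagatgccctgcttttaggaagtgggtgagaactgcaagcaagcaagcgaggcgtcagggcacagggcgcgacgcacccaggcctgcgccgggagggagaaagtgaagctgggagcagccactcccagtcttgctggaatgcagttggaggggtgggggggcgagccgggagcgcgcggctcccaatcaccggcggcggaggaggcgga
Erbb4: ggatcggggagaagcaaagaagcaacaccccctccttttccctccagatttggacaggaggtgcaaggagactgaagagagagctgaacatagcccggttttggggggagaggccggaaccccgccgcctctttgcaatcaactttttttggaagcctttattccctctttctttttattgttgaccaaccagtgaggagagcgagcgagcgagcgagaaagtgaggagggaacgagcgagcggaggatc
The 250 bases before the RefSeq start of Egfr held 1 GC box, those of Met held 3, and those of Erbb2 and Erbb4 held none, against 32.7% of 32851 such mouse windows with at least 1. The NF-kB motif, by its name the motif of the RELA family and searched on both strands, had no match in any window of the 6 members and was present in 3.9% of all windows. TATAAA was likewise absent from the 6, with 12.4% of all windows holding it, and CACGTG matched 1 time, in Met, with 6.02% of all windows holding it. GC content was 74.0% for Met, 66.0% for Erbb2, 60.8% for Egfr and 54.0% for Erbb4, with a median of 52.4% over all windows. These counts describe the letters in the windows only.

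Several features of the libraries touch every result. Library totals ran from 51150569 to 112938462 counts. Over 12636 genes the MRX-2843 tumor libraries correlated with vehicle naive brain at 0.962 to 0.964 and with vehicle tumor at 0.487 to 0.492, so in overall profile they stood with naive brain, against their label. The summed level of 8 mural cell and fibroblast markers was 10354 to 10474 CPM (counts relative to TMM-adjusted library size) in vehicle tumor and 158 to 174 in MRX-2843 tumor, beside 158 to 169 in the naive groups. Mitochondrially encoded genes took 3.26% and 3.37% of counts in vehicle tumor and 14.7% to 18.5% in the other 6 libraries. Counts of the Y-linked gene Ddx3y were 2168 to 6717 in the 4 vehicle libraries and 0 in the 4 MRX-2843 libraries. Xist was 0.408 to 2.88 CPM in the vehicle libraries and 526 to 795 in the MRX-2843 libraries. The vehicle libraries thus had the pattern of males and the MRX-2843 libraries that of females, so sex coincided with treatment. The column names also carry an unexplained number. It is 909 on all 4 MRX-2843 libraries, naive brain and tumor alike, 914 on both vehicle tumor libraries and the first vehicle naive brain library, and 915 on the second vehicle naive brain library. Whether a shared number means a shared animal is not stated. Without the library numbered 915, so within number 914, vehicle tumor against vehicle naive brain again called 7 of the 10 genes. Effects of MRX-2843 cannot be told apart from these differences, and every comparison with MRX-2843 tumor compares the libraries so labelled. In bulk tissue, fewer cells of a type and less RNA per cell cannot be told apart either.

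In vehicle tumor, 5 of the 10 genes rose and 2 fell against vehicle naive brain. Erbb2, Nrg2, Erbb3, Egfr and Hbegf were 18.1-fold, 12.5-fold, 9.81-fold, 4.49-fold and 2.05-fold higher, and Erbb4 and Nrg1 were 1.75-fold and 1.77-fold lower. Egf, Met and Hgf did not pass the test. A gene was called where its Benjamini-Hochberg adjusted p in edgeR's quasi-likelihood test, over all genes tested, was under 0.05. By that rule 29.3% of all genes tested were higher and 30.8% lower in this comparison, 60.1% in all, so 7 called of 10 is near the background. The libraries of the compared groups did not overlap for 8 of the 10, against 80.5% of all genes tested. The median log2 fold change was 0.66 over the 10 genes and -0.03 over all genes tested. The same calls were made without both MRX-2843 tumor libraries, with 5 higher and 2 lower.

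Erbb2, the partner receptor, stood at 2.64 and 2.64 CPM under vehicle and 2.58 and 2.12 under MRX-2843 in naive brain, with 49.3 and 46.3 under vehicle and 4.61 and 4.32 under MRX-2843 in tumor. Vehicle tumor was far above all other libraries, and MRX-2843 tumor was the next highest with no overlap with either naive group. The log2 fold change in vehicle tumor against vehicle naive brain was 4.18 ± 0.15 (SE, 2 libraries a group, edgeR adjusted p = 3.4e-12). Erbb3, the neuregulin receptor with little kinase activity, measured 7.65 and 6.82 CPM under vehicle and 10.2 and 8.35 under MRX-2843 in naive brain, with 71.3 and 70.8 under vehicle and 19.2 and 17.3 under MRX-2843 in tumor. Vehicle tumor was again the highest group and MRX-2843 tumor the next, without overlap with any other group. The naive groups stood in the opposite order to Erbb2, with vehicle below MRX-2843. Its log2 fold change was 3.29 ± 0.12 (edgeR adjusted p = 4.4e-12).

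Egfr, the receptor of Egf and Hbegf, was at 7.84 and 8.70 CPM under vehicle and 8.70 and 9.57 under MRX-2843 in naive brain, with 36.2 and 38.1 under vehicle and 16.1 and 14.2 under MRX-2843 in tumor. The naive groups overlapped, and both tumor groups lay above them. Its log2 fold change in vehicle tumor was 2.17 ± 0.13 (edgeR adjusted p = 1.1e-09). Erbb4 ran the other way. It stood at 23.5 and 23.97 CPM under vehicle and 33.7 and 36.4 under MRX-2843 in naive brain, with 13.1 and 14.0 under vehicle and 23.4 and 23.2 under MRX-2843 in tumor. Vehicle tumor was the lowest group and MRX-2843 naive brain the highest. Erbb4 fell by 0.81 ± 0.10 on the log2 scale in vehicle tumor (edgeR adjusted p = 6.4e-06). Met, the Hgf receptor, rested on 34 to 264 counts a library. It measured 2.58 and 2.00 CPM under vehicle and 0.697 and 1.13 under MRX-2843 in naive brain, with 2.61 and 2.995 under vehicle and 1.34 and 0.742 under MRX-2843 in tumor. The vehicle libraries were all above the MRX-2843 libraries, and the log2 difference between vehicle tumor and vehicle naive brain was 0.29 ± 0.42 (edgeR adjusted p = 0.58).

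**Figure D1:**
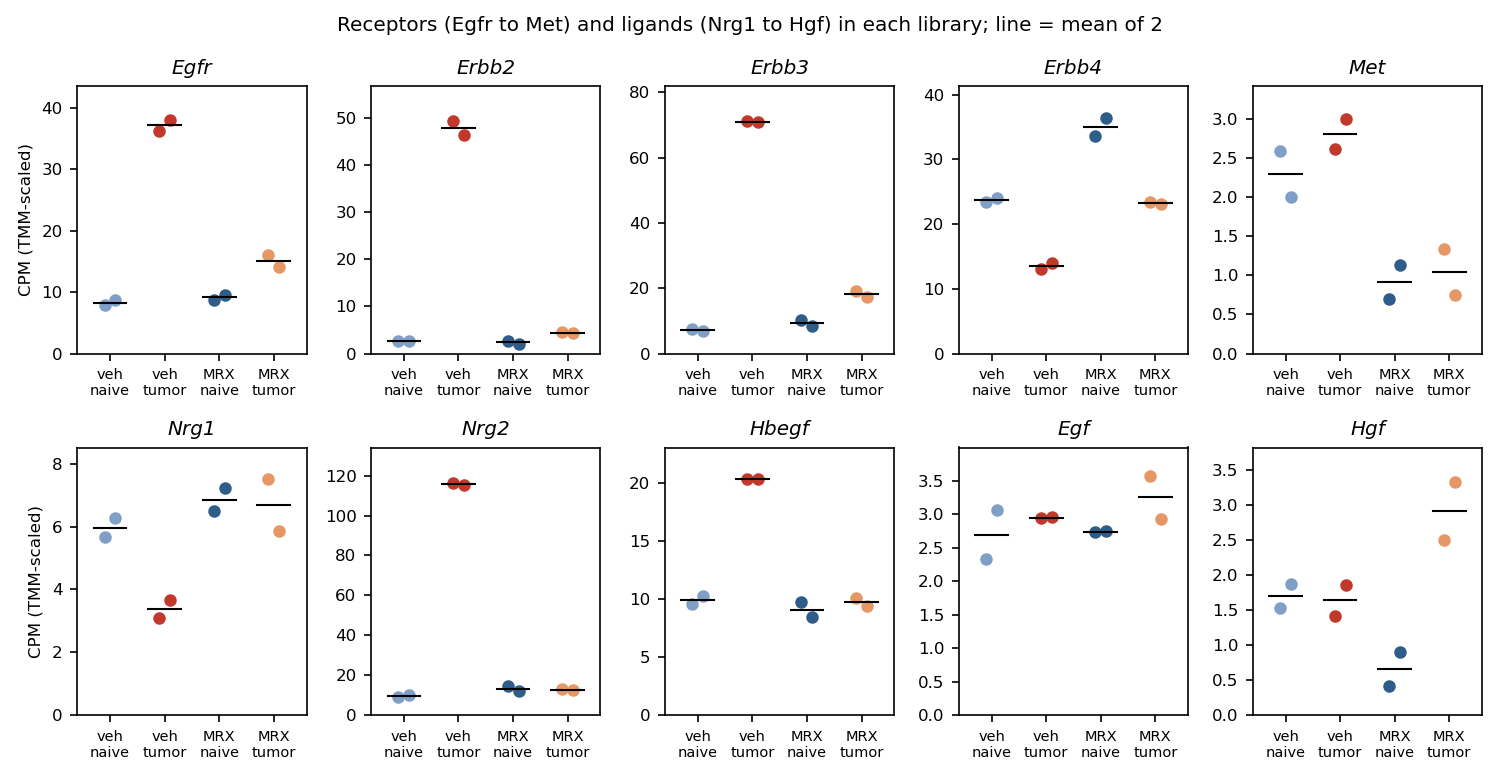
Level of each receptor and ligand in the 8 libraries, as TMM-scaled CPM on an axis from 0 for each gene; points are libraries, 2 a group, and lines are group means. Erbb2, Erbb3, Egfr, Nrg2 and Hbegf are highest in vehicle tumor, where Nrg2 reaches 117 CPM, and Erbb4 is lowest there.

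Among the ligands, Nrg2 had the widest range. It was at 8.78 and 9.83 CPM under vehicle and 14.5 and 11.9 under MRX-2843 in naive brain, with 117 and 115 under vehicle and 13.0 and 12.4 under MRX-2843 in tumor. Vehicle tumor stood far above the rest, and the MRX-2843 naive libraries lay above the vehicle ones. The log2 fold change in vehicle tumor was 3.64 ± 0.11 (edgeR adjusted p = 3.4e-13). Hbegf, a membrane-anchored ligand of Egfr and Erbb4, measured 9.56 and 10.3 CPM under vehicle and 9.74 and 8.44 under MRX-2843 in naive brain, with 20.4 and 20.4 under vehicle and 10.1 and 9.38 under MRX-2843 in tumor. The 6 libraries outside vehicle tumor overlapped, and the log2 fold change in vehicle tumor was 1.04 ± 0.14 (edgeR adjusted p = 1.3e-05).

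Nrg1, the other neuregulin, moved opposite to Nrg2. Its levels were 5.66 and 6.27 CPM under vehicle and 6.50 and 7.23 under MRX-2843 in naive brain, with 3.09 and 3.65 under vehicle and 7.53 and 5.87 under MRX-2843 in tumor. Vehicle tumor lay below all other libraries, and Nrg1 fell by 0.82 ± 0.22 on the log2 scale (edgeR adjusted p = 0.0049). Egf was low and even, at 2.33 and 3.05 CPM under vehicle and 2.73 and 2.75 under MRX-2843 in naive brain, with 2.95 and 2.95 under vehicle and 3.57 and 2.93 under MRX-2843 in tumor. It passed the test in none of the 4 comparisons. Hgf, with 20 to 197 counts a library, was at 1.52 and 1.86 CPM under vehicle and 0.410 and 0.900 under MRX-2843 in naive brain, with 1.41 and 1.86 under vehicle and 2.50 and 3.32 under MRX-2843 in tumor. Both MRX-2843 tumor libraries were the highest and both MRX-2843 naive brain libraries the lowest.

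Levels of different genes were compared per length, as CPM divided by exon length in kilobases (RPKM). In vehicle naive brain the order was Nrg2 at 2.97, Hbegf 2.05, Erbb4 1.92, Erbb3 1.20, Egfr 0.730, Nrg1 0.576 and Erbb2 0.507 RPKM, with Met, Egf and Hgf between 0.235 and 0.298 and not separated beyond their spread. In vehicle tumor it was Nrg2 at 36.9, Erbb3 11.8, Erbb2 9.17, Hbegf 4.21, Egfr 3.28 and Erbb4 1.09 RPKM, followed by Met at 0.365 and Nrg1 at 0.326, which overlapped, and Egf and Hgf at 0.262 and 0.228. From naive brain to tumor under vehicle, Erbb2 moved from rank 7 to rank 3 and Erbb4 from rank 3 to rank 6. In MRX-2843 tumor the order again began with Nrg2 at 4.06, then Erbb3 3.04, Hbegf 2.01, Erbb4 1.88 and Egfr 1.33 RPKM. In MRX-2843 naive brain Nrg2 at 4.21 and Erbb4 at 2.84 RPKM led, and Met at 0.119 and Hgf at 0.0911 RPKM were last and overlapped.

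Most lists of cell type markers moved with these differences. In vehicle tumor 5 of 6 oligodendrocyte precursor markers were higher, with summed levels of 1008 to 1028 CPM against 244 to 251 in vehicle naive brain. All 8 oligodendrocyte markers were lower (487 to 501 against 7462 to 7524 CPM), as were all 8 inhibitory interneuron markers (37.2 to 43.7 against 786 to 793 CPM) and all 8 neuron markers (591 to 601 against 8349 to 8553 CPM). The neuron markers were uneven, with log2 fold changes from -5.62 to -0.17. All 9 microglia and macrophage markers, all 7 endothelial markers and 7 of 8 mural cell and fibroblast markers were higher. Lists that went both ways or mostly did not pass were the astrocyte markers (2 higher and 4 lower of 7), the ependymal markers (3 higher and 1 lower of 6) and the choroid plexus markers (2 lower of 6). The summed ependymal markers were at 31.7 to 32.9 CPM in vehicle tumor and 5.196 to 5.96 in vehicle naive brain, with 1 listed gene at 0 in the latter. This sum does not describe each ependymal marker, as log2 fold changes ran from -2.59 to 7.14. The highest is that of the gene at 0, which had 24 and 18 counts in vehicle tumor, and it depends on the prior count. Foxj1 (0.23) and Ccdc153 (0.06), named after their values were seen, did not pass. Ccdc153 had only 0 to 8 counts a library here, too few to show if it changed. Of the remaining ependymal markers, Rarres2 (3.67), Cfap126 (2.03) and the gene at 0 were higher, and Dynlrb2 (-2.59) was lower. In the other lists no gene was at 0 in either group. The part of cell makeup in the receptor and ligand differences was not tested.

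In MRX-2843 tumor against vehicle tumor, which shares the vehicle tumor libraries with the comparison above, 6 of the 10 genes fell and 2 rose. Erbb2, Nrg2, Erbb3, Met, Egfr and Hbegf were 10.7-fold, 9.11-fold, 3.89-fold, 2.698-fold, 2.46-fold and 2.09-fold lower, and Nrg1 and Erbb4 were 1.99-fold and 1.72-fold higher. Over all genes tested, 29.8% were lower and 30.6% higher, 60.4% in all, beside 8 of 10. Libraries did not overlap for 9 of the 10, against 80.9% of all genes tested. The median log2 fold change was -1.18 over the 10 genes and 0.03 over all genes. The receptor Erbb2 fell by 3.42 ± 0.15 and Erbb3 fell by 1.96 ± 0.12 on the log2 scale (edgeR adjusted p = 2.3e-11 and 1e-09). The ligand Nrg2 fell by 3.19 ± 0.11 (edgeR adjusted p = 1.3e-12). Met fell by 1.43 ± 0.44 (edgeR adjusted p = 0.011). Without the second MRX-2843 tumor library Met was at -1.09 and no longer passed, with an adjusted p of 0.094. Hgf, at 0.83 ± 0.44, did not pass (edgeR adjusted p = 0.12).

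In naive brain, MRX-2843 against vehicle, Erbb4 and Nrg2 rose and Met fell. The background was 9.78% higher and 11.7% lower, 21.5% in all, and the count of called members was 3 of 10. Libraries did not overlap for 7 of the 10, against 57.0% of all genes tested. Erbb4 changed by 0.56 ± 0.10 on the log2 scale (edgeR adjusted p = 0.00085) and Nrg2 by 0.50 ± 0.11 (edgeR adjusted p = 0.0038). Met fell by 1.30 ± 0.44 (edgeR adjusted p = 0.048), which did not hold without the first MRX-2843 library or without either vehicle library, at adjusted p of 0.24, 0.22 and 0.073. Leaving out the second MRX-2843 naive brain library raised the count of called members to 5, adding Erbb3 and Hgf. Beside the change in Erbb4, 6 of 8 inhibitory interneuron markers were higher and 2 lower, with summed levels of 1259 to 1276 CPM against 786 to 793. Neuron markers were lower in 7 of 8, at 3962 to 3997 against 8349 to 8553 CPM. Single genes differed widely, with log2 fold changes of -2.96 to 1.64 for the interneuron markers and -3.49 to 0.26 for the neuron markers. The part of these marker differences in the Erbb4, Nrg2 and Met values was not tested.

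**Figure D2:**
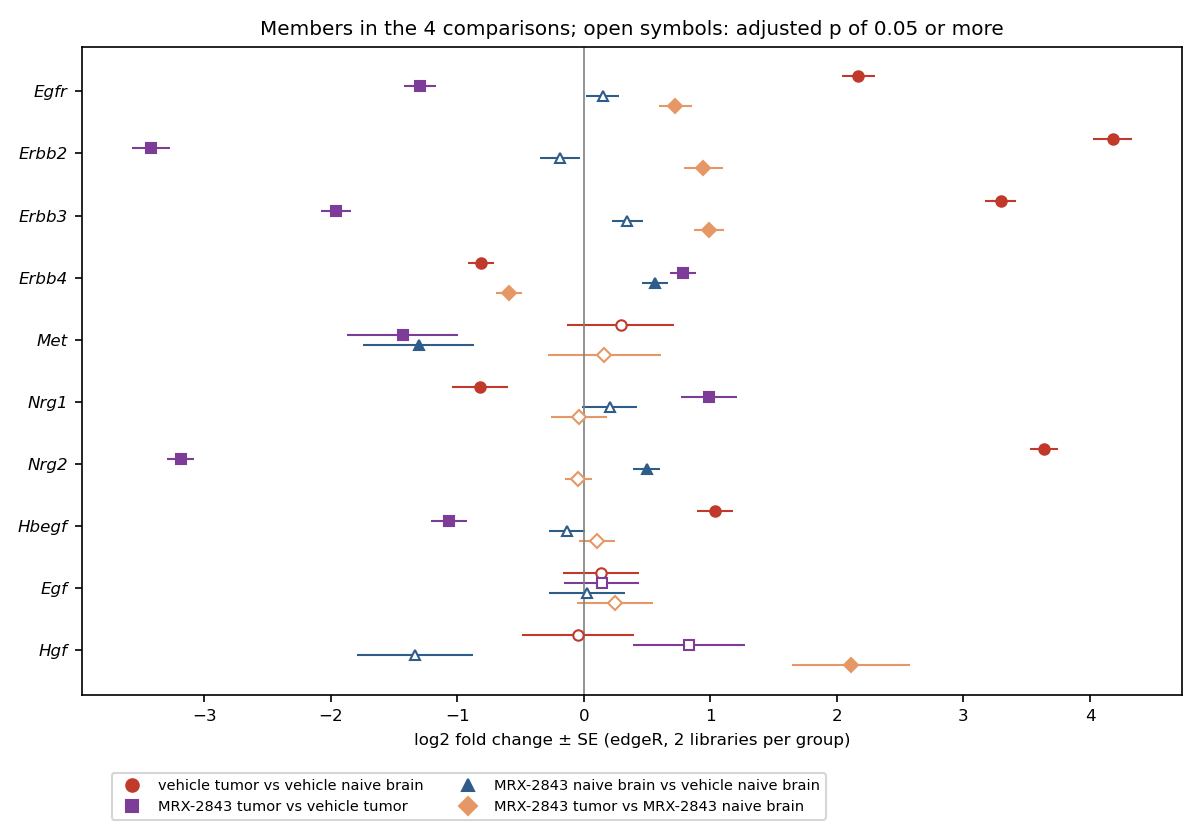
Log2 fold change of each gene with its SE in the 4 comparisons, 2 libraries a group; filled symbols passed edgeR's test at an adjusted p under 0.05. Erbb2, Nrg2 and Erbb3 lie farthest to the right for vehicle tumor against vehicle naive brain (4.18, 3.64 and 3.29) and to the left for MRX-2843 tumor against vehicle tumor.

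Within MRX-2843, tumor exceeded naive brain for Hgf, Erbb3, Erbb2 and Egfr, by 4.33-fold, 1.99-fold, 1.92-fold and 1.65-fold, and Erbb4 was 1.51-fold lower. The background here was 12.4% higher and 11.9% lower, 24.4% in all, beside 5 of 10 called. Libraries did not overlap for 6 of the 10, against 57.7% of all genes tested. Hgf rose by a log2 fold change of 2.11 ± 0.46 (edgeR adjusted p = 0.0036), and this call held without any single library. Without the second MRX-2843 naive brain library the rise of Hgf was larger, at 2.82. Erbb3 rose by 0.99 ± 0.12 (edgeR adjusted p = 2.5e-05), Erbb2 by 0.94 ± 0.16 (0.00037) and Egfr by 0.72 ± 0.13 (0.0007). Erbb4 fell by 0.59 ± 0.10 (edgeR adjusted p = 0.00054). Nrg2, highest of the ligands in vehicle tumor, differed by -0.04 ± 0.11 here and did not pass (edgeR adjusted p = 0.85).

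In the same comparison all 8 oligodendrocyte markers were higher, by 0.82 to 1.40 on the log2 scale, with summed levels of 14148 to 14618 CPM in MRX-2843 tumor and 7551 to 7621 in MRX-2843 naive brain. Oligodendrocyte precursor markers were higher in 4 of 6. Inhibitory interneuron markers were lower in 6 of 8 and higher in 1, at 689 to 721 against 1259 to 1276 CPM. The rises of Erbb2 and Erbb3 lay within the range of the oligodendrocyte markers. They also lay within the ranges of the neuron markers (-1.11 to 2.40) and inhibitory interneuron markers (-1.53 to 1.94). The ependymal markers (0.42 to 2.01) and choroid plexus markers (-1.91 to 1.52) spanned them too. The remaining lists stayed below both receptors. Their highest values were 0.85 for oligodendrocyte precursor markers, 0.75 for astrocyte markers and 0.72 for mural cell and fibroblast markers. Microglia and macrophage markers reached 0.48 and endothelial markers 0.23. In vehicle tumor against vehicle naive brain, all 8 oligodendrocyte markers fell while Erbb2 and Erbb3 rose. The part of any of these markers in the receptor values was not tested.

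**Figure D3:**
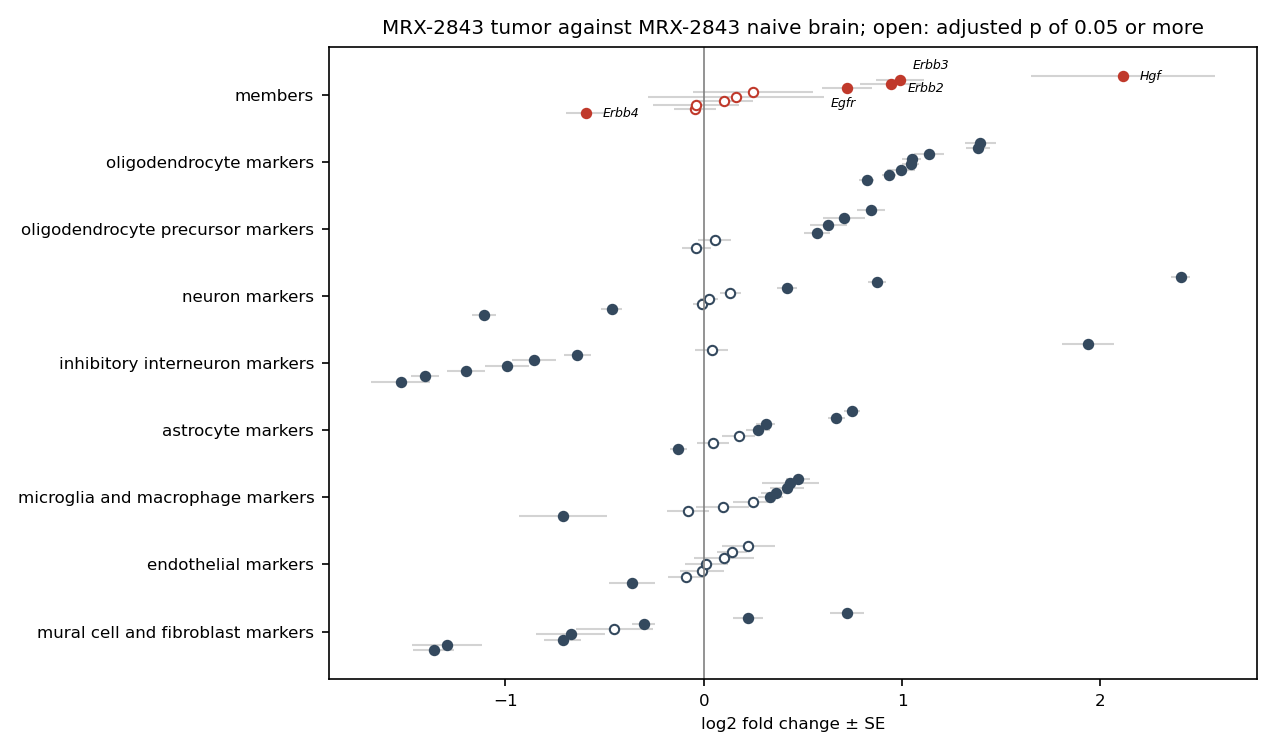
Log2 fold change with SE for MRX-2843 tumor against MRX-2843 naive brain, for the 10 genes (red) and 8 lists of cell type markers; filled points passed edgeR's test. All 8 oligodendrocyte markers lie between 0.82 and 1.40, where Erbb3 at 0.99 and Erbb2 at 0.94 also lie, and Hgf is at 2.11. The wider ranges of the neuron and inhibitory interneuron markers also include the Erbb3 and Erbb2 values. The points of the remaining marker lists drawn lie below those values.

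The interaction of treatment and tissue tests whether the tumor-against-brain difference itself differed with treatment. It passed for 7 of the 10 genes, 5 lower and 2 higher, against 25.3% lower and 26.3% higher among all genes tested, 51.6% in all. Nrg2 had the value farthest from 0, at -3.68 ± 0.15, followed by Erbb2 at -3.23 ± 0.21 and Erbb3 at -2.30 ± 0.17 on the log2 scale (edgeR adjusted p = 2e-11, 5.4e-09 and 1.8e-08). Hgf went the other way at 2.16 ± 0.64 (edgeR adjusted p = 0.01), and was at 2.87 without the second MRX-2843 naive brain library. Nrg1, the other higher gene, lay at the threshold (0.78 ± 0.31, edgeR adjusted p = 0.047). It missed it in 10 of 15 alternatives, among them the replicate block, at 0.062. Erbb4, Met and Egf did not pass.

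Genes around the receptors were read from 5 lists, beside the share of all genes called in this comparison, 29.3% higher and 30.8% lower. Of the other ErbB ligands, 5 of 7 were tested in vehicle tumor against vehicle naive brain, and 2 fell. Nrg3, a ligand of Erbb4, was at 24.3 and 26.3 CPM in naive brain and 0.624 and 1.20 in tumor under vehicle, and fell by 4.78 ± 0.22 on the log2 scale (edgeR adjusted p = 5.2e-11). Nrg4 fell by 1.75 ± 0.44 (0.003), or by 2.37 without the first vehicle tumor library. Btc, at 2.17 ± 0.91, did not pass (0.054). This result was not stable, as Btc passed in 11 of 17 alternatives. Its counts were uneven between the naive brain libraries under vehicle, at 4 and 44. Areg and Ereg did not pass the filter.

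Of the genes for feedback and receptor turnover, 6 of 10 rose, 3 fell and 1 did not pass, with a median of 0.86. Errfi1, a feedback inhibitor of ErbB kinases, rose by 1.65 ± 0.09, Erbin, which binds Erbb2, by 1.58 ± 0.08, and the phosphatase Ptpn1 by 1.41 ± 0.07. Of the adaptors, 6 of 10 rose, 1 fell and 3 did not pass, with a median of 0.24, so that 7 of 10 called is near the 60.1% of all genes. Shc1, an adaptor to Ras signalling, rose by 2.16 ± 0.11, and the docking proteins Gab1 and Gab2 by 0.95 ± 0.09 and 0.85 ± 0.10. The shedding genes are proteases that free ErbB ligands from the membrane and helpers of Adam17. Of these, 4 of 5 tested rose and 1, a protease, fell, with a median of 2.26. Adam17, the main sheddase of Hbegf and Tgfa, rose by 2.42 ± 0.10, Rhbdf1, which helps Adam17 mature, by 2.28 ± 0.08, and Adam10 by 1.49 ± 0.11.

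The list of Hgf activation and Met partners had 11 of 15 rising, 2 falling and 2 not passing, with a median of 2.47, while Hgf and Met themselves did not pass. Cd44 was at 6.83 and 5.07 CPM in naive brain and 139 and 145 in tumor under vehicle, a log2 fold change of 4.58 ± 0.13 (edgeR adjusted p = 1e-13). Itgb4 rose by 2.86 ± 0.07 and Plxnb2 by 2.08 ± 0.07. The next 5 were named after their values were seen. Mst1r, the receptor most closely related to Met, was at 1.87 and 1.55 CPM in naive brain and 58.8 and 67.2 in tumor under vehicle, a rise of 5.202 ± 0.20 (edgeR adjusted p = 5e-12). The proteases St14 and Hpn, which can activate the Hgf precursor, rose by 3.79 ± 0.45 and 3.20 ± 0.22, and St14 was at 4.78 without the first vehicle naive brain library. Their inhibitor Spint2 fell by 2.12 ± 0.12. Spint1, a second inhibitor, had 0 counts in both vehicle tumor libraries, at least 15.2-fold lower than in vehicle naive brain with the floor set at 3 counts over the group. The vehicle naive brain libraries were unequal, with 28 and 8 counts, and alone gave bounds of 23.4-fold and 6.94-fold.

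**Figure D4:**
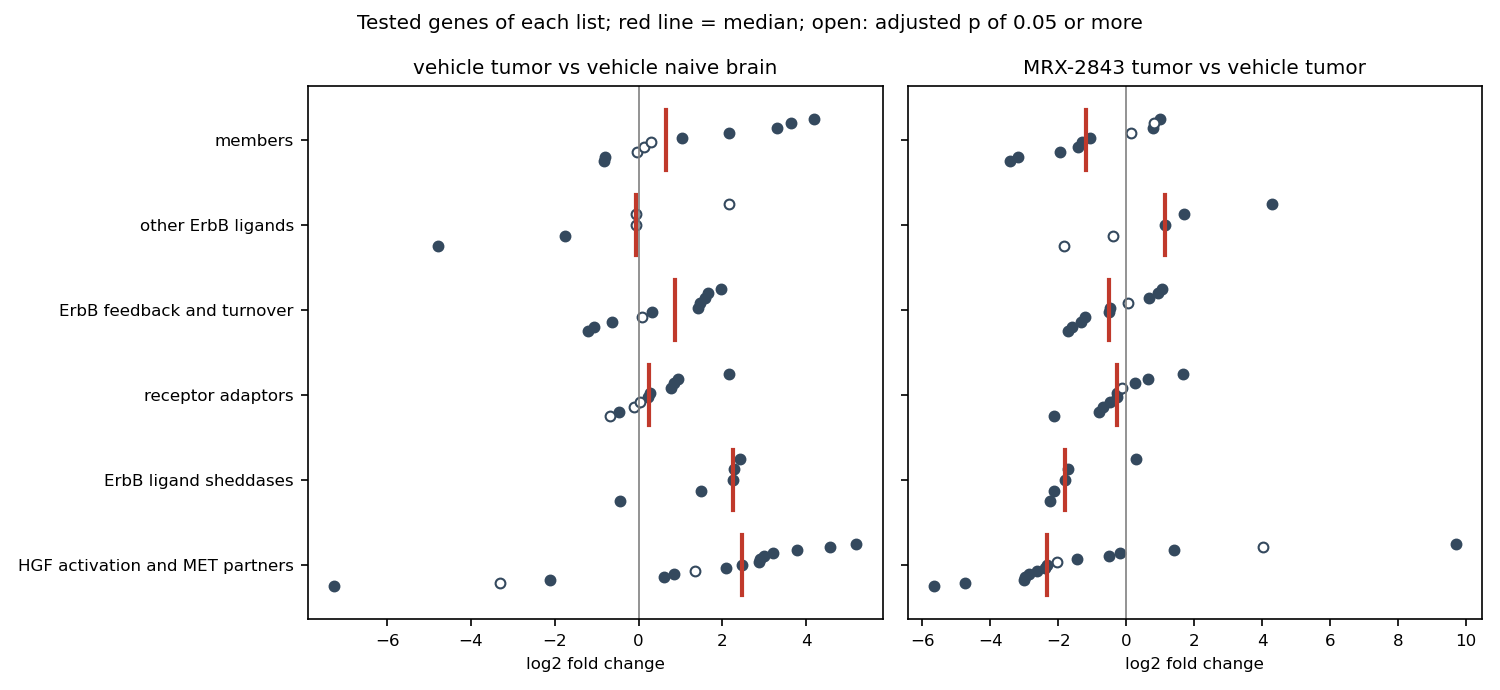
Log2 fold changes of the 10 genes and of the tested genes of 5 lists, for vehicle tumor against vehicle naive brain (left) and MRX-2843 tumor against vehicle tumor (right); red lines are list medians and open points did not pass. The list of Hgf activation and Met partners has a median of 2.47 on the left and -2.32 on the right, and its farthest points, for Spint1, depend on the prior count because that gene had 0 counts in vehicle tumor.

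In MRX-2843 tumor against vehicle tumor, 11 of those 15 genes were lower and 2 higher, with a median of -2.32. Mst1r fell by 4.75 ± 0.19 and Cd44 by 5.65 ± 0.14 on the log2 scale. Of the shedding genes 4 were lower and 1 higher. The feedback genes had 6 lower and 3 higher, as did the adaptors. Of the other ErbB ligands 3 were higher and 2 did not pass. Beside these counts, 60.4% of all genes were called. In naive brain, MRX-2843 against vehicle, the counts higher and lower were 1 and 1 of 5 ligands, 1 and 2 of 10 feedback genes, 2 and 3 of 10 adaptors, and 4 and 3 of 15 genes around Hgf and Met. Of 5 shedding genes, Adam10 fell. With 21.5% of all genes called, the counts for feedback genes and shedding genes were near the background. Within MRX-2843, 5 of those 15 were higher and 1 lower in tumor, beside 24.4% of all genes called.

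Neighbours were the nearest protein-coding genes on either side of each member that do not overlap it. Genes overlapping a member were not read. There were 20 neighbours, of which 19 were tested in vehicle tumor against vehicle naive brain. Of these, 8 were higher, 4 lower and 7 not called, with a median of 0.17. The 12 called of 19 are near the 60.1% of all genes. Erbb2, which rose 18.1-fold, lies between Pgap3, 11.98 kb away at 0.05 ± 0.17 (edgeR adjusted p = 0.84), and Grb7, 8.68 kb away at -0.69 ± 0.41 (0.16). Neither passed the test. Pa2g4, 1.54 kb from Erbb3, was higher by 0.29 ± 0.08 (edgeR adjusted p = 0.009). Nrg1 spans chr8:31814551-32884029 on the minus strand. Nrg2 and Hbegf are both on chromosome 18, 307.5 kb apart with 4 protein-coding genes between them. Psd2, next to Nrg2, fell by 1.23 ± 0.10, and Pura, on its other side, rose by 0.51 ± 0.11.

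**Figure D5:**
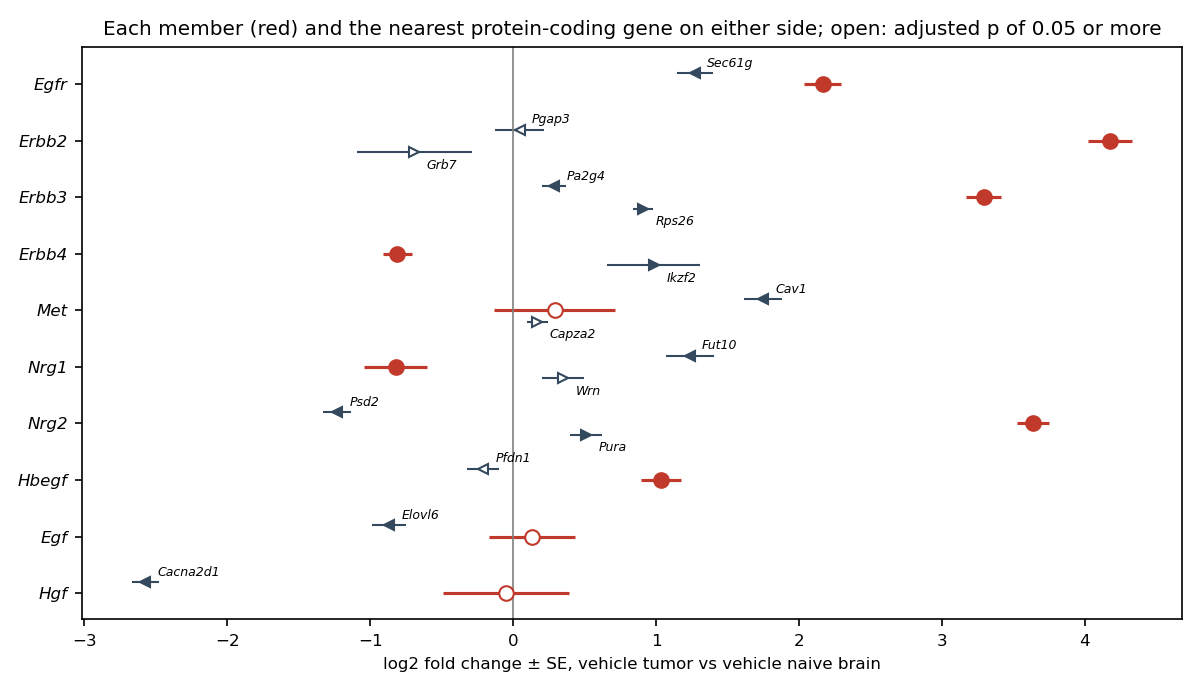
Log2 fold change with SE in vehicle tumor against vehicle naive brain for each of the 10 genes (red circles) and its neighbours. Neighbours are the nearest protein-coding genes that do not overlap the gene, at lower (left triangle) and higher (right triangle) coordinates. The 15 neighbours with at least 1 CPM in either group are drawn, and open symbols did not pass. Erbb2 at 4.18 and Nrg2 at 3.64 lie to the right of both of their neighbours.

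Likeness of pattern was measured over the 8 libraries as the root mean square difference of log2 CPM after each gene's own mean was removed, among 12473 genes. The nearest gene was Dock1 for Egfr (0.109), Fgd3 for Erbb2 (0.129), Notch1 for Erbb3 (0.120), Meaf6 for Erbb4 (0.0858) and Rspo3 for Met (0.161). For the ligands it was Slc12a4 for Nrg2 (0.124), Zfp235 for Nrg1 (0.0832), Rbm3 for Hbegf (0.0573), Mier3 for Egf (0.0813) and Sel1l3 for Hgf (0.362). The smallest difference for Hgf was wider than those of the other 9. Hgf, Met and Egf were themselves below the level searched, so they were matched only with genes of higher level.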

How the data were processed

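RNA-seq of 8 mouse libraries (4 groups of 2) was analysed from 1 deposited table of raw counts per gene, whole numbers for 55414 genes. Per the submitters' processing notes the tools were featureCounts, Subread, SAMtools and STAR 2.7.7a and the builds mm10 and hg38, with no role or order; annotation, strand and trimming are not given in the sources used here, so overlapping and antisense genes may share reads. Of the identifiers, 94.08% matched GENCODE M21 without their version and 35 with it, so exon lengths and coordinates come from another release than the counts.

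These counts went into edgeR 4.0.16 (R 4.3.3) with TMM scaling, a filter by filterByExpr (minimum count 10, groups given, 24356 genes left) and a quasi-likelihood fit of 4 group means to all 8 libraries with 4 residual degrees of freedom and a common biological coefficient of variation of 21.0%. Adjusted p-values are Benjamini-Hochberg over all genes tested, with a threshold of 0.05. Values after ± are SE, computed as the absolute log2 fold change divided by sqrt(F). The procedure was tested on simulated data. A count of 0 allows up to 3 counts, 0.0281 to 0.0615 CPM by library, for counting error only. Libraries of a group differed by more than counting noise. Promoter letters are RefSeq's. Tables and plots used Python 3.11.15, pandas 2.3.3, NumPy 2.4.6 and matplotlib 3.10.9.

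The 10 genes and the lists were chosen with earlier results of these data known. Named besides them are from each list up to 3 genes, those of smallest adjusted p in vehicle tumor against vehicle naive brain, the nearest protein-coding neighbours, and the genes nearest in pattern; others are said to be chosen after their values were seen. Alternatives were DESeq2's size factors in edgeR, library totals, DESeq2 1.42.0, no filter, at least 1 CPM in 2 libraries, a replicate block, only the groups compared, and leaving out each library. Fits without both MRX-2843 tumor libraries and without 37 mitochondrially encoded genes were added after seeing the data.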

Additional observations from a re-analysis of the deposited data

Results flagged for a closer look

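The tumor-against-brain difference differed between MRX-2843 and vehicle for 7 of the 10 genes, tested as the interaction in edgeR (log2 scale, tumor-minus-brain under MRX-2843 less the same under vehicle). The values were -1.44 ± 0.18 for Egfr (edgeR adjusted p = 6.9e-06), -3.23 ± 0.21 for Erbb2 (5.4e-09), -2.30 ± 0.17 for Erbb3 (1.8e-08), -0.93 ± 0.20 for Hbegf (0.0011), -3.68 ± 0.15 for Nrg2 (2e-11), 0.78 ± 0.31 for Nrg1 (0.047) and 2.16 ± 0.64 for Hgf (0.01). The Nrg1 value missed the threshold in 10 of 15 alternatives, and Hgf was at 2.87 without the second MRX-2843 naive brain library.

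Of the other named genes, the ligands gave 5.40 for Nrg3, 1.70 for Nrg4 and 0.56 for Tgfa. Feedback genes gave -1.10 for Ptpn1, -0.70 for Erbin, -1.06 for Errfi1 and -2.31 for Lrig1. Adaptors and shedding genes gave -2.24 for Shc1, -0.72 for Gab2, -2.37 for Rhbdf1, -1.97 for Adam17 and -1.18 for Adam10. Genes around Hgf and Met gave -1.64 for Itgb4, -4.48 for Cd44, -1.88 for Plxnb2, -4.38 for Mst1r, -2.44 for Hpn, -2.49 for St14 and 0.81 for Spint2. Spint1 gave 6.60, a fitted value that depends on the prior count because vehicle tumor had 0 counts. Without 1 library, Nrg4 was at 2.31 (first vehicle tumor library left out), St14 at -3.48 and Spint1 at 5.49 (first vehicle naive brain library), and Spint1 at 7.23 (second vehicle naive brain library). All rest on MRX-2843 tumor libraries that stood with naive brain in overall profile. No group had enough libraries to test for a single library standing apart.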

How the results depend on the processing

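All calls of the 10 genes in vehicle tumor against vehicle naive brain held under every alternative run. Across single libraries left out, the count of called members was 7 in that comparison, 7 to 8 in MRX-2843 tumor against vehicle tumor, 2 to 5 in MRX-2843 against vehicle naive brain, 5 within MRX-2843, and 6 to 7 for the interaction. In naive brain the count was 3, and 5 with no filter. Erbb3 (adjusted p = 0.064) and Hgf (0.053) lay near the threshold there. Library totals in place of TMM shifted the median of all genes by 0.24 in vehicle tumor against vehicle naive brain and by -0.21 in MRX-2843 tumor against vehicle tumor. Libraries with equal replicate numbers did not deviate together from their group means (correlations of -0.0902 to 0.0695). This check used only the replicate numbers, not the column numbers, so it cannot show whether libraries share an animal. With a replicate block, over all genes, 14120, 14226, 5067 and 5759 were called in the 4 comparisons and 12113 in the interaction. With that block Met in naive brain moved to -1.29 (adjusted p = 0.066), Nrg1 in the interaction to 0.79 (0.062), and Erbb3 and Hgf in naive brain passed at 0.047 and 0.036.

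Direction turned only for values that had not passed. With library totals these were Hgf (0.20) and Tgfa (0.20) in vehicle tumor against brain, Egf (-0.084) in MRX-2843 against vehicle tumor, and Egf (-0.10) and Gab1 (-0.22) in the interaction, where Gab1 was also -0.0037 with no filter and at 0.00 with the replicate block. With each library left out in turn, vehicle tumor against brain ran from -0.048 to 0.35 for Egf, -0.26 to 0.14 for Hgf and -0.12 to 0.018 for Tgfa. MRX-2843 against vehicle tumor ran from -0.0097 to 0.25 for Egf. In naive brain the drug comparison ran from -0.16 to 0.23 for Egf, -0.40 to 0.31 for Nrg4, -2.43 to 1.04 for Btc and -1.11 to 0.45 for St14. Within MRX-2843 it ran from -0.0013 to 0.20 for Hbegf, -0.23 to 0.14 for Nrg1, -0.19 to 0.094 for Nrg2, -0.32 to 0.57 for Met, -0.36 to 0.34 for Nrg4 and -0.22 to 0.052 for Shc1. The interaction ran from -0.098 to 0.30 for Egf, -0.62 to 0.28 for Met, -2.87 to 0.60 for Btc and -0.031 to 0.025 for Gab1. The cause was not tested. Low counts limit Met, Hgf and Egf.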

Other observations

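Tgfa, a ligand of Egfr, and Lrig1, which lowers ErbB receptor levels, were singled out after their values were seen. Tgfa was at 29.7 and 27.3 CPM under vehicle and 41.8 and 43.3 under MRX-2843 in naive brain, with 26.2 and 28.8 under vehicle and 63.0 and 57.6 under MRX-2843 in tumor. All 4 MRX-2843 libraries were above all 4 vehicle libraries. It rose with MRX-2843 by 0.58 ± 0.09 in naive brain (edgeR adjusted p = 0.00023) and by 1.13 ± 0.09 in tumor (2.9e-08), while vehicle tumor against vehicle naive brain gave -0.05 ± 0.09 (0.65). Lrig1 was at 23.9 and 22.3 CPM under vehicle and 46.97 and 44.95 under MRX-2843 in naive brain, with 60.5 and 67.4 under vehicle and 25.5 and 25.5 under MRX-2843 in tumor. It was higher in tumor than in brain under vehicle, by 1.47 ± 0.09 (edgeR adjusted p = 1.1e-09), while under MRX-2843 the tumor libraries were lower than brain, with a log2 difference of -0.85 ± 0.09 (5.7e-06). Treatment cannot be told apart from the differences in sex-linked genes and in the column numbers.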
